A study of Mus musculus with 6 samples.

Results

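The report covers 10 matricellular and elastic fibre genes, listed by name and looked up in the count table by Ensembl identifier with symbols from GENCODE M21. They are Thbs1, Thbs2, Sparc, Spp1, Tnc, Postn, Fn1, Fbn1, Eln and Fbln5. The table holds 57132 genes, of which 16263 had enough counts to be tested, and all 10 members were among those tested.

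RNA was sequenced from immortalized podocytes of adult male mice, 8 weeks of age by the sample records. Wild-type podocytes (WT, Col4a3+/+) and Alport syndrome podocytes (AS, Col4a3-/-) were compared in 3 samples each, numbered as sets. Every genotype was a single line, and an effect of the line cannot be told apart from an effect of the genotype. Both lines come from crosses of Col4a3 knockout mice with H-2kb-tsA58 transgenic mice, whose temperature-sensitive large T antigen, induced by interferon gamma, keeps cells dividing at the permissive temperature. Both lines therefore carry the transgene. By the sample records, all samples were grown at 33 °C with 20 U/mL interferon gamma, differentiated for 14 days at 37 °C and left untreated, whereas the methods of the study describe another medium, less interferon gamma and a shorter differentiation. The sets are not stated to be separate cultures, and p-values then measure only the spread between these samples, which may be technical. Col4a3 encodes a chain of the type IV collagen network of the mature glomerular basement membrane, and its loss is a cause of Alport syndrome.

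Matricellular proteins are secreted into the extracellular matrix, where they bind growth factors, collagens and cell surface receptors and so change how a cell attaches and signals, rather than serving mainly as scaffold. Elastic fibres consist of a core of cross-linked elastin on a sheath of fibrillin microfibrils, and fibulins join the components together. In the glomerulus these proteins are associated with the mesangial matrix and with scarring more than with the healthy basement membrane, and podocytes in culture secrete several of them.

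The total count per sample lay between 45417221 and 54290968. Levels are given as CPM, the counts relative to library sizes scaled by TMM, a normalization that removes differences in RNA composition. Differences are AS over WT from the quasi-likelihood test of edgeR, two-sided, with p-values adjusted by Benjamini-Hochberg over all genes tested and a threshold of 0.05. The Col4a3 transcript lay between 938 and 1272 CPM in the WT samples and between 61.2 and 82.9 CPM in the AS samples. Among podocyte markers, Tcf21 had 0 counts in every sample, where a count of 0 allows up to 3 counts in a library. Summed over the 12 markers of that list, the level was 1726 to 1898 CPM across WT samples and 1295 to 1383 CPM across AS samples, with 2 markers higher and 6 lower in AS podocytes. The 10 fibroblast and mesangial markers summed to 9833 to 12312 CPM across WT samples and 9711 to 11280 CPM across AS samples, with 3 higher and 3 lower. Among these, Col1a1 was at 24.3 ± 4.15 CPM in the WT line and 477 ± 99.1 CPM in the AS line (SD, n = 3), whereas Col1a2 fell from 30.6 ± 7.12 to 0.999 ± 0.299 CPM. Of that list, Lum had 0 counts throughout. Most of the sum of that list was Acta2, at means of 6701 CPM in the WT line and 6759 CPM in the AS line. Tagln followed at 4158 and 2859 CPM. Endothelial markers summed to at most 1.67 CPM and leukocyte markers to at most 15.4 CPM in any sample. Parietal epithelial markers summed to 380 to 467 CPM across WT samples and 326 to 349 CPM across AS samples. Tubular markers summed to 373 to 419 CPM across WT samples and 275 to 387 CPM across AS samples. In AS podocytes, 2 parietal epithelial and 1 tubular marker were lower, and 0 of either list were higher. In these bulk samples, fewer cells of a type and less RNA per cell cannot be told apart, and the part of other cell types in the results was not tested. WT replicate 1 stood apart from the rest of its line. Its counts differed from those of the other WT samples by a chi-square per degree of freedom of 47.2 and 49.5, against 9.73 between WT replicates 2 and 3, and between 18.6 and 22.2 among AS samples. The fold changes of the members are therefore also given without it.

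Of the 10 members, AS podocytes had 2 at a higher and 4 at a lower level, and 4 members did not pass the threshold. Over all genes tested, 40.1% passed, 20.4% as higher and 19.6% as lower in AS podocytes. The samples of the lines did not overlap for 6 members, the same 6 that passed, against 52.3% of all genes tested. A fold change above 2 together with the threshold was met by 3 members, against 11.2% of all genes tested. Thbs2 and Postn met it as higher, as 4.59% of all genes did, and Spp1 as lower, as 6.59% did. The median log2 fold change of the members was -0.13, where that of all genes tested was 0.01, and the median of its absolute value was 0.67 against 0.28. The members therefore did not move together in 1 direction, and the genes that rose were among the least abundant of the set.

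**Figure D1:**
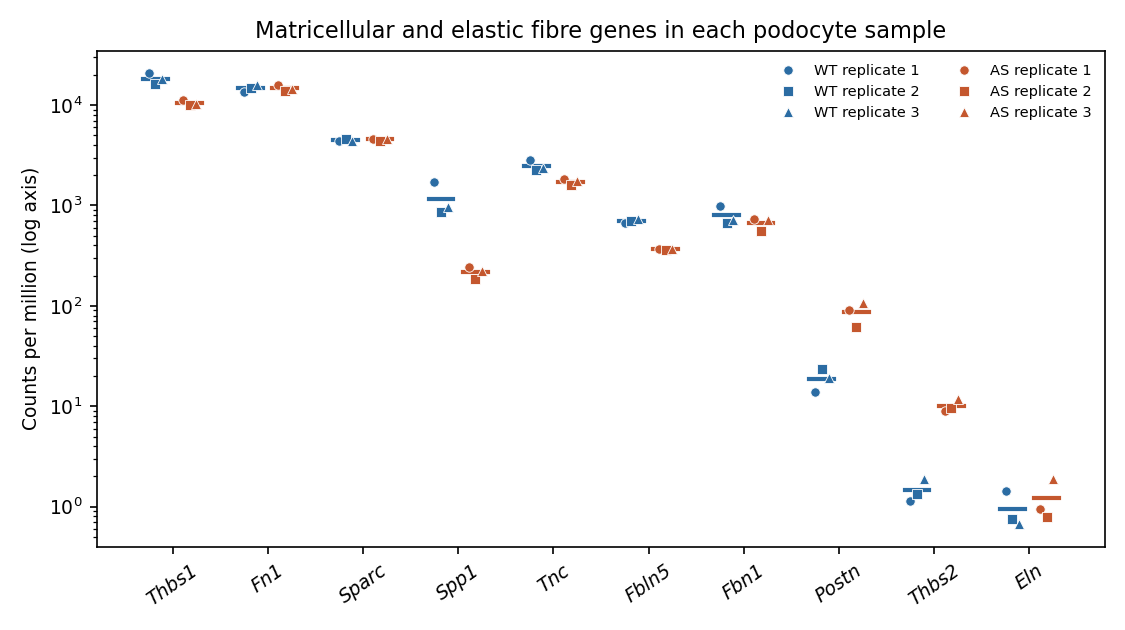
CPM on a log axis of the 10 members in each sample, with WT in blue and AS in orange, symbols for the replicates and a bar at the mean of the 3 samples. Thbs2 and Postn sit higher in every AS sample than in any WT sample, Thbs1, Spp1, Tnc and Fbln5 sit lower, and the samples of the lines overlap for Fn1, Sparc, Fbn1 and Eln.

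For these 3 members, which differed most between the lines, the sequence just upstream of the start of transcription is shown. Windows of 250 bases before and 50 bases after a RefSeq gene start (build GRCm38.p6) were at hand for 7 of the 10 members, 11 windows in all, and those of Thbs1, Fn1 and Eln were not analysed here. The stretches below are the 150 bases just before the start, written 5′ to 3′ along the gene, and hold no exon of GENCODE M21. Thbs2 lies at chr17:14694263-14694412 on the minus strand, Spp1 at chr5:104434961-104435110 on the plus strand and Postn at chr3:54360957-54361106 on the plus strand. Spp1 and Postn each have another RefSeq start that is not shown. Capitals mark TATAAA, the core of a TATA box, read on either strand.
Thbs2: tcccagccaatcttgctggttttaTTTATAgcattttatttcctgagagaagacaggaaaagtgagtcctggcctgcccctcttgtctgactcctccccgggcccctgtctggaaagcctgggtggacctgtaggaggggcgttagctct
Spp1: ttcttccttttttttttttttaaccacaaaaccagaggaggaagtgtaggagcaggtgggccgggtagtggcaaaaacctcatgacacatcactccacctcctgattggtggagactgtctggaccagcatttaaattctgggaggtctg
Postn: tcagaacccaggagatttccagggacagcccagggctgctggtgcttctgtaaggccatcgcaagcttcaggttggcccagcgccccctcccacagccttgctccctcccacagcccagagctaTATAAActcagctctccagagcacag
In the Postn window shown, the TATAAA lies on the strand of the gene, 26 bases before the start, the distance at which TATA boxes are usually found. The other Postn window held no TATAAA. For each stretch shown, the bases just after the RefSeq start were not found together in a GENCODE M21 transcript of the gene. For the Spp1 start that is not shown they were found in such a transcript, and the window of that start held no TATAAA. The capitals in Thbs2 are the same letters on the opposite strand, and the match of Spp1 lies farther upstream than the stretch shown. Within the 250 bases before the start, TATAAA was found on either strand in 5 of the 11 windows, which belong to Thbs2, Spp1, Tnc and Postn, and in 12.4% of 32851 RefSeq gene starts. The Sp1-type motif GGGCGG was found in 4 windows, which belong to Tnc, Fbn1 and Fbln5, against 32.7% of all starts. The AP-1-type motif TGANTCA, the TEAD-type motif CATTCC and the CArG box of serum response factor were found in 0 of the 11 windows, against 6.75%, 12.6% and 1.47% of all starts. The windows of Tnc overlap, and the same TATAAA and the same GGGCGG were counted in both of them. These matches describe letters only, and the lines were not compared at these sequences.

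The thrombospondins stood near both ends of the range of levels. Thbs1 encodes thrombospondin-1, a secreted trimer that binds Cd47 and releases TGF-β from its latent complex. Its level was 20694, 16003 and 18143 CPM in the WT samples and 11217, 10045 and 10211 CPM in the AS samples. All 3 AS samples lay below all 3 WT samples. Thbs1 held 1.82% of all counts in WT podocytes, rank 1 among the genes tested, and 1.06% in AS podocytes. A share of counts depends on the length of a gene as well as on its level. The mean fell from 18280 ± 2348 CPM to 10491 ± 634 CPM (SD, n = 3), a log2 fold change of -0.80 (SE 0.11, adjusted p = 0.000371, edgeR). WT replicate 1 was the highest of the 6 samples.

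Thbs2 encodes thrombospondin-2, the closest relative of thrombospondin-1, known for its role in collagen fibril assembly and as an inhibitor of angiogenesis. It was measured at 1.14, 1.32 and 1.89 CPM in the WT samples and at 8.90, 9.69 and 11.9 CPM in the AS samples. These values rest on 58, 62 and 87 counts in WT and 401, 498 and 656 counts in AS samples. Every AS sample stood several times above the highest WT sample. The means were 1.45 ± 0.387 CPM and 10.2 ± 1.57 CPM, a 7.02-fold increase in AS podocytes (log2 fold change 2.81, SE 0.21, adjusted p = 8.44e-06, edgeR). The thrombospondins thus changed in opposite directions, and their levels per length of transcript drew closer. In RPKM, the CPM divided by the length of the union of exons in kilobases, Thbs1 was 14523 times the level of Thbs2 in WT podocytes and 1190 times in AS podocytes. By RPKM, Thbs2 lay at percentile 11.3 of the genes tested in WT and at percentile 34.2 in AS podocytes.

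Sparc, a collagen-binding glycoprotein that is abundant in podocytes and other matrix-producing cells, did not pass the threshold. Its level was 4391, 4553 and 4370 CPM in WT and 4632, 4397 and 4610 CPM in AS samples, and the lines overlapped. The means of 4438 ± 99.8 and 4546 ± 130 CPM (SD, n = 3) differed by a log2 fold change of 0.03 (SE 0.07, adjusted p = 0.725, edgeR).

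Spp1 encodes osteopontin, an acidic glycoprotein that binds integrins and Cd44 and acts as a cytokine as well as a matrix protein. Its level was 1693, 851 and 972 CPM in the WT samples and 242, 183 and 224 CPM in the AS samples. WT replicate 1 was well above the other WT samples, and all AS samples were below all WT samples. The mean fell from 1172 ± 456 to 216 ± 30.1 CPM, 5.42-fold lower in AS podocytes (log2 fold change -2.44, SE 0.24, adjusted p = 4.90e-05, edgeR). Per length (RPKM), Spp1 lay at percentile 99.8 of the genes tested in WT and at percentile 98.5 in AS podocytes.

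Tnc encodes tenascin-C, a large hexameric glycoprotein of developing and injured tissue that modulates adhesion to fibronectin. It was measured at 2866, 2251 and 2362 CPM in WT and at 1846, 1586 and 1734 CPM in AS samples. The lowest WT sample stood above the highest AS sample. The mean fell from 2493 ± 328 to 1722 ± 130 CPM (SD, n = 3), a log2 fold change of -0.53 (SE 0.10, adjusted p = 0.00269, edgeR). Among genes with a mean log2 CPM of at least 2, the median log2 fold change on chromosome 4, where Tnc lies, differed by -0.18 from that of all chromosomes. With the median of each chromosome removed, the log2 fold change of Tnc was -0.36 (adjusted p = 0.0240, edgeR), and the part of the chromosome in its difference was not tested further.

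Postn encodes periostin, a matricellular protein with fasciclin domains that binds collagen, fibronectin and tenascin-C and takes part in collagen cross-linking. Its level was 13.8, 23.5 and 19.2 CPM in the WT samples and 90.4, 61.7 and 106 CPM in the AS samples. Every AS sample was higher than every WT sample, and the spread between samples was 25.8% of the mean in the WT line and 26.1% in the AS line. The means were 18.9 ± 4.87 and 86.0 ± 22.4 CPM, a 4.56-fold increase (log2 fold change 2.19, SE 0.22, adjusted p = 6.23e-05, edgeR). By RPKM, Postn rose from percentile 39.8 to percentile 71.4 of the genes tested.

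Fn1 encodes fibronectin, the adhesive glycoprotein on which many other matrix proteins assemble. Its level was 13333, 14876 and 15878 CPM in WT and 15915, 13674 and 14299 CPM in AS samples. The lines overlapped fully, and the highest and the lowest sample came from different lines. The means of 14696 ± 1282 and 14630 ± 1156 CPM (SD, n = 3) differed by a log2 fold change of -0.01 (SE 0.10, adjusted p = 0.966, edgeR), whose sign turned under other scalings. A p above the threshold does not show that the levels of Fn1 or Sparc were equal, but their standard errors were among the smaller ones of the set.

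The genes of the elastic fibre itself differed from each other in level by orders of magnitude. Fbn1 encodes fibrillin-1, the main protein of microfibrils. It was measured at 994, 672 and 719 CPM in WT and at 733, 553 and 713 CPM in AS samples, and the lines overlapped. The means were 795 ± 174 and 666 ± 99.1 CPM, a log2 fold change of -0.25 (SE 0.15, adjusted p = 0.219, edgeR), which shrank to -0.06 without WT replicate 1. With no filter on low counts, Fbn1 passed the threshold (adjusted p = 0.0153, edgeR).

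Eln encodes tropoelastin, the soluble precursor of elastin. Its level was 1.42, 0.748 and 0.672 CPM in WT and 0.955, 0.798 and 1.89 CPM in AS samples, from 72, 35 and 31 counts and 43, 41 and 104 counts. The lines overlapped, and in each of them 1 sample was well above the others. With means of 0.947 ± 0.412 and 1.21 ± 0.590 CPM, the log2 fold change was 0.36 (SE 0.41, adjusted p = 0.527, edgeR), and it ranged from -0.12 without AS replicate 3 to 0.78 without WT replicate 1. The spread between samples was 43.5% of the mean in the WT line and 48.6% in the AS line.

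Fbln5 encodes fibulin-5, which binds both elastin and integrins and is needed for elastic fibre assembly. Its level was 665, 693 and 734 CPM in the WT samples and 368, 363 and 368 CPM in the AS samples. The AS samples lay within a few CPM of each other and far below every WT sample. The mean fell from 697 ± 34.5 to 366 ± 3.04 CPM (SD, n = 3), a ratio of 0.525 (log2 fold change -0.93, SE 0.06, adjusted p = 4.04e-06, edgeR).

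**Figure D2:**
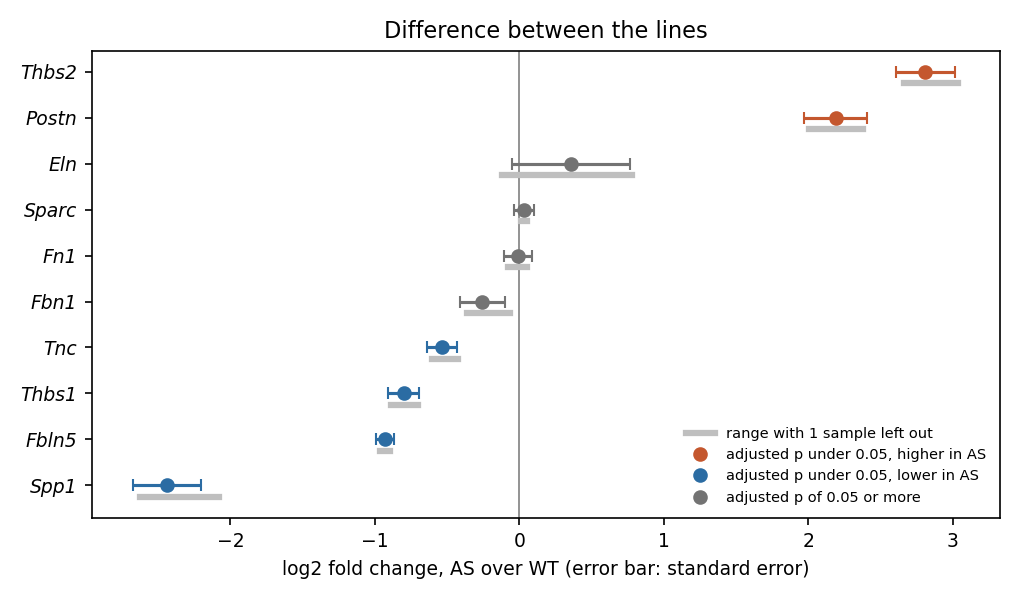
Log2 fold change of each member (AS over WT) with its standard error from edgeR, and a grey bar for the range when 1 of the 6 samples is left out. The grey bars of Thbs2, Postn, Tnc, Thbs1, Fbln5 and Spp1 stay on 1 side of 0, while those of Eln and Fn1 cross it.

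The plot of fold changes orders the members from Spp1 at -2.44 to Thbs2 at 2.81. Among the 6 that passed the threshold, leaving out any 1 sample kept both the direction and the call. Without WT replicate 1, the log2 fold change was -0.70 for Thbs1, 2.66 for Thbs2, -2.08 for Spp1, -0.42 for Tnc, 2.01 for Postn and -0.96 for Fbln5. Of the members that did not pass, it was then 0.03 for Sparc, -0.07 for Fn1, -0.06 for Fbn1 and 0.78 for Eln. The plot of all genes tested shows the members against their mean level, where the lowered members are all abundant and the raised members lie in the middle and lower part of the range.

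**Figure D3:**
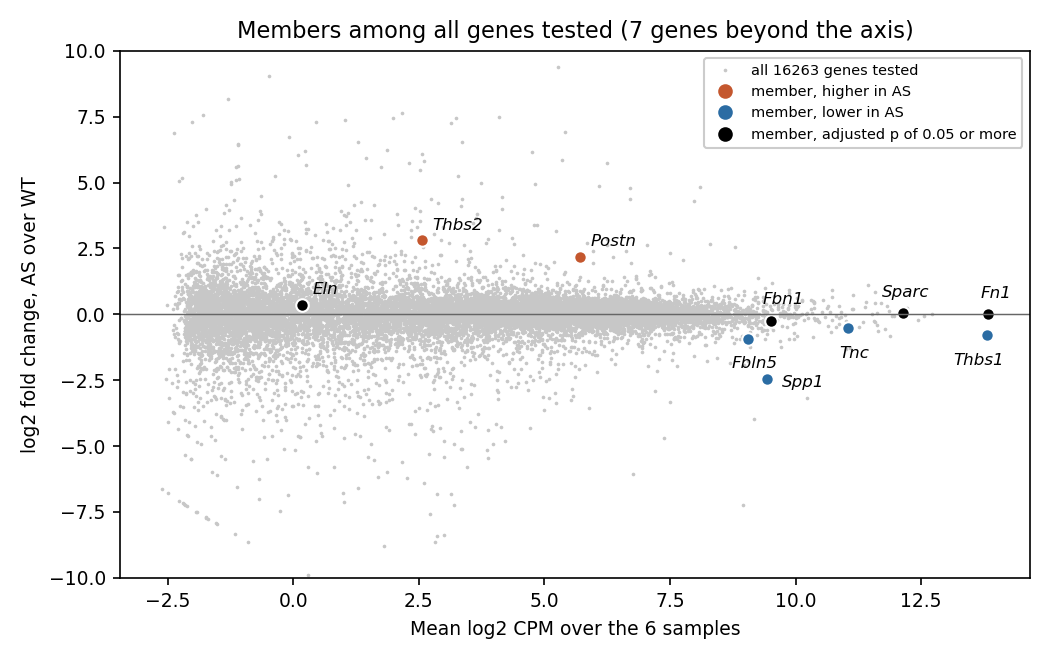
Log2 fold change (AS over WT) against mean log2 CPM over the 6 samples for all 16263 genes tested in grey, with the 10 members named and coloured by their call. Thbs1, Tnc, Fbln5 and Spp1 lie below 0 at the abundant end, Thbs2 and Postn lie above 0, and 7 genes fall outside the axis, which ends at 10 on either side of 0.

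Per length, the members were ordered as follows. In WT podocytes the order by mean RPKM was Thbs1 (3010), Fn1 (1258), Sparc (1172), Spp1 (711), Tnc (321), Fbln5 (101), Fbn1 (65.5), Postn (2.17), Thbs2 (0.207) and Eln (0.117). Of neighbours in that order, Fn1 and Sparc, and Thbs2 and Eln, overlapped between samples. In AS podocytes the order was Thbs1 (1728), Fn1 (1252), Sparc (1200), Tnc (222), Spp1 (131), Fbn1 (55.0), Fbln5 (53.0), Postn (9.88), Thbs2 (1.45) and Eln (0.15), with overlap of Fn1 with Sparc and of Fbn1 with Fbln5. Spp1 therefore changed places with Tnc, and Fbln5 came down to the level of Fbn1. With the longest transcript in place of the union of exons, Sparc stood above Fn1 in WT podocytes and above both Thbs1 and Fn1 in AS podocytes, and Fbln5 stood above Fbn1 in AS podocytes, so that these parts of the order depend on the length used.

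The members summed to 42592 ± 2422 CPM in the WT line and 32735 ± 2127 CPM in the AS line (SD, n = 3), and held 4.0% to 4.35% of the counts in WT and 3.15% to 3.48% in AS samples. Thbs1 accounted for 79.0% of the difference in the sum (-7789 of -9857 CPM). Thbs1, Fn1 and Sparc together made up 87.8% of the sum in WT and 90.6% in AS podocytes, and the rise of Postn and Thbs2 was too small in CPM to show in it.

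Within a line, 4 of the members varied in the same order. For Thbs1, Spp1, Tnc and Fbn1, replicate 1 was the highest and replicate 2 the lowest sample in both lines. The deviation of WT replicate 1 from the mean log2 CPM of its line was 0.60 for Spp1, 0.34 for Fbn1, 0.21 for Tnc and 0.19 for Thbs1, and that of AS replicate 1 was 0.17, 0.15, 0.10 and 0.10. Postn and Thbs2 were lowest in WT replicate 1, at -0.41 and -0.31. This grouping was made after the values were seen, and its source was not tested.

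**Figure D4:**
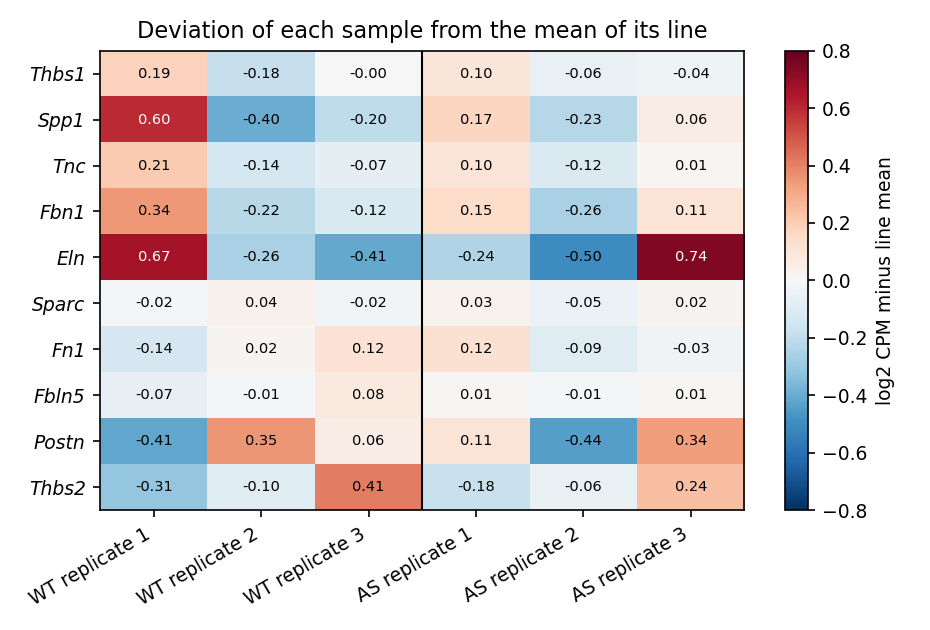
Deviation of log2 CPM from the mean of the sample's own line for the 10 members (rows) in the 6 samples (columns), with red for higher and blue for lower. WT replicate 1 is red for Thbs1, Spp1, Tnc, Fbn1 and Eln and blue for Postn and Thbs2, and Sparc and Fbln5 stay within 0.08 of 0 in every sample.

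Genes of the same families, of the elastic fibre and of the receptors were listed beside the members. Of 64 such genes, 49 were tested, and AS podocytes had 14 of them at a higher level and 12 at a lower level, while 23 did not pass. The median log2 fold change was 0.07 over the 49 genes, against 0.01 over all genes tested. With 53.1% of them past the threshold, the share was above the 40.1% of all genes, a difference that was not tested.

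Among relatives of the thrombospondins, Thbs3 rose from 23.3 ± 4.01 to 34.5 ± 4.90 CPM (log2 fold change 0.56, adjusted p = 0.00844, edgeR), and the other tested member of the list did not pass. Of 4 tested SPARC relatives, 1 was lower: Smoc1 fell from 19.7 ± 11.4 to 7.53 ± 1.33 CPM (log2 fold change -1.39, or -0.81 without WT replicate 1). The only tested tenascin besides Tnc was Tnxb, which rose from 0.259 ± 0.0907 to 0.761 ± 0.186 CPM (log2 fold change 1.55, adjusted p = 0.0120, edgeR). These low levels of Tnxb rest on 10, 17 and 10 counts in WT and 43, 30 and 41 counts in AS samples. Tgfbi, which shares the fasciclin domains of periostin, was at 0.352 ± 0.108 and 0.497 ± 0.201 CPM and did not pass (adjusted p = 0.391, edgeR). None of the 4 relatives of osteopontin had enough counts to be tested, and Ibsp, Dspp and Mepe had 0 counts in every sample while Dmp1 reached a mean of 0.00722 CPM in WT podocytes. Of 4 tested CCN genes, another matricellular family, Ccn5 fell from 316 ± 28.6 to 81.5 ± 2.78 CPM (log2 fold change -1.95, adjusted p = 1.13e-07, edgeR) and the other 3 did not pass.

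Partners of Fbn1 and Fbln5 changed in both directions. Of 11 tested microfibril genes, 2 were higher and 2 lower. Fbn2, the fibrillin of developing tissue, fell from 23.4 ± 4.44 to 1.21 ± 0.436 CPM (log2 fold change -4.27, adjusted p = 1.76e-06, edgeR). Ltbp4, a latent TGF-β binding protein that works with fibulin-5 in elastogenesis, rose from 2.94 ± 0.487 to 18.1 ± 2.07 CPM (log2 fold change 2.62, adjusted p = 1.47e-06, edgeR). Ltbp1 rose by 0.87 and Emilin1 fell by 0.41 on the log2 scale. All 7 elastic fibre assembly genes were tested, with 4 higher and 1 lower. Fbln2 rose from 1747 ± 150 to 3786 ± 89.6 CPM (log2 fold change 1.12, adjusted p = 7.16e-06, edgeR), Efemp1 (fibulin-3) from 26.6 ± 4.70 to 52.5 ± 5.01 CPM and Fbln7 from 16.2 ± 5.04 to 48.3 ± 6.62 CPM, opposite to Fbln5. Lox, which cross-links elastin and collagen, fell from 1240 ± 238 to 753 ± 43.0 CPM (log2 fold change -0.72, adjusted p = 0.00176, edgeR).

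Of 19 tested receptors and partners, 6 were higher and 7 lower. Tgm2, a transglutaminase that cross-links fibronectin, fell from 648 ± 128 to 182 ± 4.41 CPM (log2 fold change -1.83, adjusted p = 6.35e-06, edgeR). Itga5, the alpha chain of the main fibronectin receptor, rose from 117 ± 9.41 to 194 ± 3.47 CPM (log2 fold change 0.73, adjusted p = 3.12e-05, edgeR), while Fn1 itself did not pass the threshold. Of the other integrin chains tested, Itga9 and Itgb5 were higher, and Itgav, Itgb3 and Itgb8 were lower. Itgb1, Itga4 and Itga8 did not pass, and the receptors Sdc4 and Cd44 were lower. Cd47, a receptor of thrombospondin-1, rose from 87.6 ± 4.27 to 115 ± 3.50 CPM (log2 fold change 0.39). In the same list, Lrp1 was also higher (log2 fold change 0.72), and Cd36 had too few counts to be tested. Tgfb3 fell from 856 ± 62.0 to 612 ± 29.8 CPM (log2 fold change -0.48), whereas Tgfb1 was higher (log2 fold change 0.31) and Tgfb2 did not pass.

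**Figure D5:**
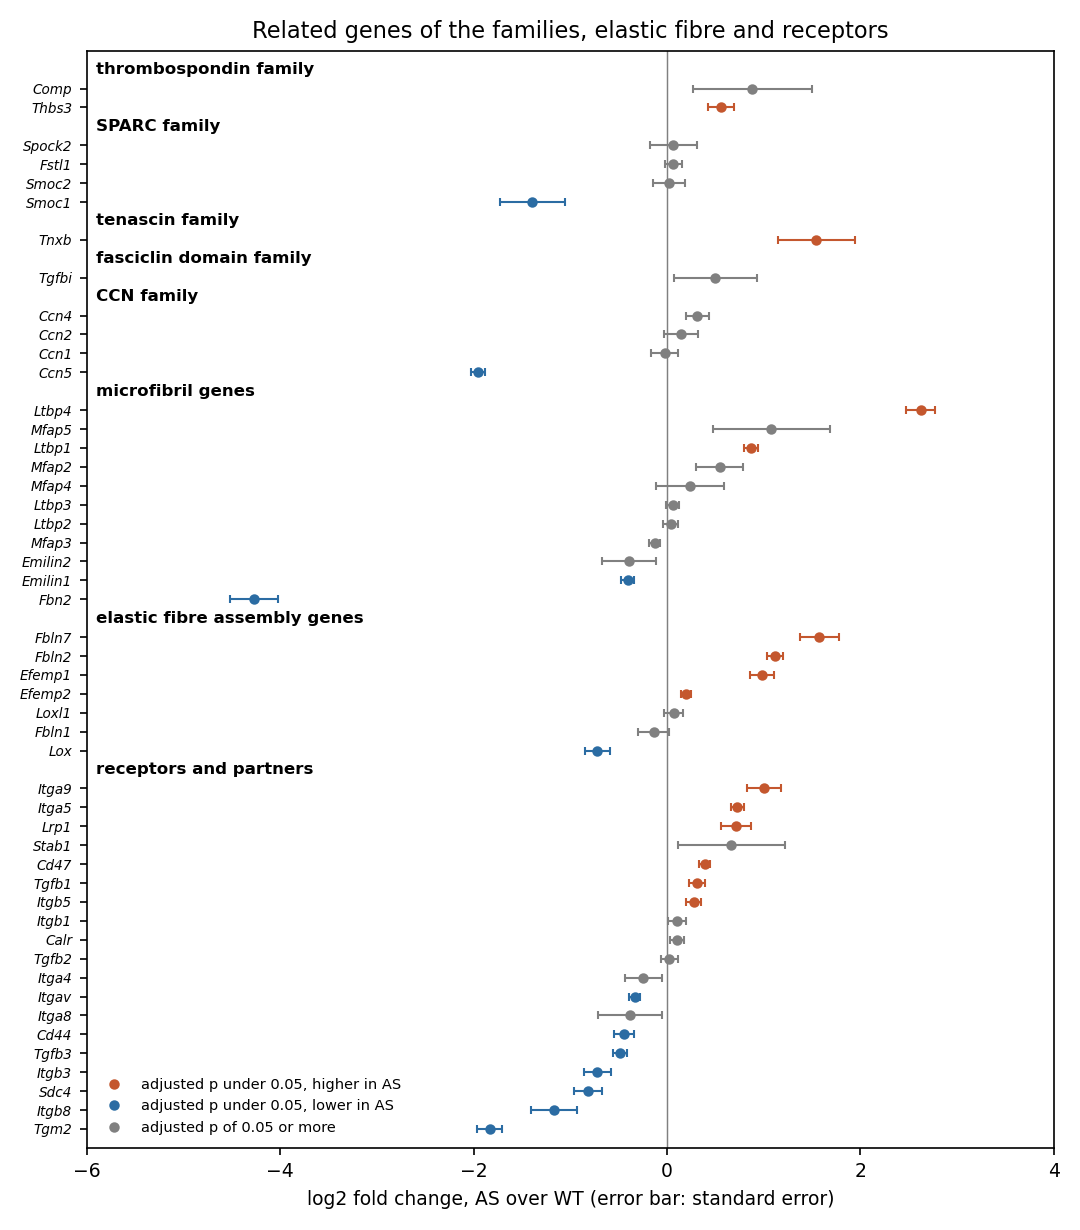
Log2 fold change (AS over WT) with its standard error from edgeR for the 49 tested relatives and partners of the members, grouped by list and coloured by call. Fbn2 at -4.27 and Ltbp4 at 2.62 lie farthest from 0, both among the microfibril genes, and 4 of the 7 elastic fibre assembly genes are higher in AS podocytes.

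For Thbs2, the member with the largest fold change, the genes of most similar profile over the 6 samples were Arl14ep, Gm37494 and Ddhd2, with a Pearson r of log2 CPM of 0.999, 0.998 and 0.998 out of 9156 genes whose mean reached 10 CPM. In the same set, 68 genes had an r above 0.99. The samples fall into the 2 lines, so that such an r mostly restates a difference between the lines, and it is given as a description.

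Several members overlap another annotated gene, and the strand setting of the counting is not given in the sources used here. On the opposite strand, Gm9913 shares 2442 of the 12128 exonic bases of Fbn1 and reached at most 1.56 CPM, and Gm29233, which shares 208 bases with Thbs1, reached at most 33.7 CPM. Spp1 shares 309 bases with Gm42793 on its own strand, which reached at most 2.88 CPM. These levels were small beside those of the members. How reads on shared bases were assigned is not known, so the levels do not bound what a member gained or lost there.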

How the data were processed

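RNA-seq of 3 WT and 3 AS samples was used. The deposited values are raw read counts, whole numbers with 1 column per sample. Per the submitters' processing notes, FastQC, Trim Galore, STAR and edgeR were used with build mm39. The sources used here do not give the counting tool, the annotation release or the strand setting. Of 57132 identifiers, 51880 matched GENCODE M21 (GRCm38), which gave symbols, chromosomes and the exon lengths for RPKM, so RPKM mixes builds. Promoter windows are RefSeq, GRCm38.p6. Libraries came from mRNA with 15 cycles of PCR, and without molecular identifiers counting limits cover counting error only.

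The analysis ran in R 4.3.3 and used edgeR 4.0.16 (filterByExpr with minimum count 10 and minimum total count 15, TMM, glmQLFit and glmQLFTest with genotype as the only term). The study's own method, limma-voom (limma 3.58.1), and DESeq2 1.42.0 were alternatives. As an approximation, the SE was taken as the log2 fold change over the root of the F statistic. The edgeR test was first checked on simulated counts. With 3 samples against 3, an exact permutation test cannot go below 0.10. The depth was 45417221 to 54290968 counts per sample, and the smallest counts of a member were those of Eln (31 to 104).

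The members and the lists of relatives and markers were chosen with earlier results of these data known, so no p over a list is given. Genes named are the members, Col4a3, up to 4 called genes of each related list with the smallest adjusted p, every gene of a list with no call, markers whose value stands beside a result, and the 3 genes most similar to the member with the largest change. Further receptors and partners are named where they stand beside a gene of that list. No samples were left out of the main comparison.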

Additional observations from a re-analysis of the deposited data

How the results depend on the processing

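Under 15 other settings, Thbs1, Thbs2, Spp1, Tnc, Postn and Fbln5 kept both direction and call (limma-voom, DESeq2, the likelihood ratio test and the fits with a sample left out included). Of 150 member values, 141 kept both, 7 turned direction and 2 moved past the threshold. The log2 fold change of Fn1 turned to 0.019 with library size only and to 0.020 with the median of each chromosome removed, and ranged from -0.080 to 0.051 with 1 sample left out. That of Eln ranged from -0.12 to 0.78 with 1 sample left out, and that of Fbn1 from -0.36 to -0.06, nearest 0 without WT replicate 1. Fbn1 passed the threshold with no filter on low counts (-0.25), and 5 members were then lower. The genes called numbered 5120 to 7066, against 6517. The causes were not tested.

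The main test did not pair samples by replicate number. Deviations of same-numbered samples correlated at 0.284, 0.160 and 0.0801, and those of other pairs of samples between the lines at -0.231 to 0.139. Of 6 samples, 5 correlated best with their own number, and an effect shared by samples of a number was not tested. With a replicate block, 7066 genes were called, and Fbn1 passed the threshold (-0.24), so that 5 members were lower. The related genes named by smallest adjusted p, or from a list with no call, kept their call in all 253 alternatives run. Eln rests on 31 to 104 counts per sample.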
